A study of Mus musculus with 16 samples.

Results

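The 9 genes described here encode proteins of retinoid metabolism and of the response to retinoic acid: *Stra6*, *Crabp2*, *Dhrs3*, *Aldh1a1*, *Aldh1a3*, *Cyp26b1*, *Rara*, *Rarb* and *Rarg*. They were chosen by symbol from the 54532 rows of a gene count table of *db/db* islets, and all 9 matched 1 row each and were among the 16910 genes with enough counts to be tested. The islets came from male BKS(D)-Leprdb/JOrlRj mice, which carry a mutated leptin receptor and are a severe model of type 2 diabetes, at 12 to 13 weeks of age. They were cultured in medium with 11 mmol/l glucose for 1 day, either with 10 µmol/l adjudin, a small molecule first studied in the testis, or with its solvent DMSO. There were 8 samples with adjudin and 8 with DMSO, each from the islets of 1 to 2 mice, in 8 numbered batches that held 1 sample of each treatment. All mice carried the *db/db* genotype, so no level here can be set against a healthy islet. Whether both samples of a batch came from the same mice is not given in the sources used here. Islets were picked by hand and matched for size, and the study left out batches of islets that looked aberrant.

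Cells take up retinol from its carrier in blood, oxidise it to retinal and then, irreversibly, to retinoic acid. Retinoic acid enters the nucleus on a binding protein and is the ligand of the retinoic acid receptors, which bind DNA with a retinoid X receptor at direct repeats of a short site. Several genes that lower retinal or retinoic acid are themselves induced by it, which gives the pathway a negative feedback. In the pancreas, retinoic acid is needed for the organ to form and for endocrine cells to differentiate, and *Aldh1a3* is known as a gene that beta cells of diabetic mice express as they lose their identity.

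Reference promoter sequences of the genes were searched for the direct repeats that retinoic acid receptors bind, and those of *Rarb*, *Dhrs3* and *Cyp26b1* are shown because the first holds the only match and the other two belong to the 2 genes of the 9 with a called change. The sequences are from RefSeq (GRCm38.p6), cover 250 bases before to 50 bases after an annotated start and are written 5′ to 3′ on the strand of the gene. The *Rarb* window lies at chr14:16575427-16575726 on the minus strand, inside the span of the gene. The *Dhrs3* window, the first of several listed for this gene, lies at chr4:144892577-144892876 on the plus strand. The other *Dhrs3* windows held none of the direct repeats searched for and are not printed. The *Cyp26b1* window lies at chr6:84593761-84594060 on the minus strand. Capitals mark the direct repeat with a spacer of 5 bases (DR5) in *Rarb*, which runs from 53 to 37 bases before the start.
Rarb: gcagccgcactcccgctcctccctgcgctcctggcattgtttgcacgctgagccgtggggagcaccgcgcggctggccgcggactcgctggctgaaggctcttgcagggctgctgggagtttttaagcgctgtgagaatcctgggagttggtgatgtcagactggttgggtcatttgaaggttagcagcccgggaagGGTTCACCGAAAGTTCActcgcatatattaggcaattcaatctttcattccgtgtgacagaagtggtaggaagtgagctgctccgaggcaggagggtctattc
Dhrs3: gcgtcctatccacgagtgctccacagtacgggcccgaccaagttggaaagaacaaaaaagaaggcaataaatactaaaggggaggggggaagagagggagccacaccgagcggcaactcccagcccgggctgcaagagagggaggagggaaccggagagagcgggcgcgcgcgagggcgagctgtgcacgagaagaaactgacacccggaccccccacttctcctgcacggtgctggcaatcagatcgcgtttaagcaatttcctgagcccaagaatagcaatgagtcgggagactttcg
Cyp26b1: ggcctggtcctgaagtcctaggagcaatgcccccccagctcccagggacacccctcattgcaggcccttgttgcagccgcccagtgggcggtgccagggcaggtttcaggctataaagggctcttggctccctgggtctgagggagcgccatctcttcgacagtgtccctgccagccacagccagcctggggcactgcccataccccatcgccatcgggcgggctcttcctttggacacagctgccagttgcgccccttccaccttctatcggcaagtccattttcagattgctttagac

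Of the 9 genes, 7 had entries, with 17 windows in all, and *Crabp2* and *Aldh1a3* had none. The DR5 of *Rarb* was the only match of the 7 genes to a direct repeat with a spacer of 1, 2 or 5 bases on either strand. Over all 32851 windows, 0.0974% held a DR5, 0.222% a DR1 and 0.268% a DR2. The letters GCGTG, the core of the motif of the aryl hydrocarbon receptor, were found on either strand in windows of *Rara*, *Rarb* and *Rarg* and overlapped no direct repeat. Of all genes with a window 35.2% held these letters, and of all windows 32.4%. A match describes the letters only, and the lack of one says nothing about sites outside these windows.

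The libraries held 24852862 to 34471164 counted reads with adjudin (median 28507016) and 24190102 to 32675186 with DMSO (median 27935928). *Ins1* and *Ins2* together took 3.25% to 9.04% of the counts with adjudin and 3.02% to 10.3% with DMSO, so the preparations held beta cell RNA beside that of exocrine, connective tissue and immune cells, whose markers are given with the results. Across all genes tested, 886 of 16910 (5.24%) passed an adjusted p of 0.05 in edgeR's quasi-likelihood test with batch and treatment as terms, 367 (2.17%) higher and 519 (3.07%) lower with adjudin. The median log2 fold change of all tested genes was 0.00. Of all tested genes, 3.15% were lower with adjudin in 8 of 8 batches and 2.22% were higher in 8 of 8.

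Levels were first compared between the genes in the 8 DMSO samples, as counts-per-million (CPM) divided by the length of the gene model in kilobases (RPKM), which is the scale on which genes of unequal length can be set side by side. *Aldh1a3*, which encodes an enzyme that oxidises retinal to retinoic acid, had the highest level, at 25.3 ± 2.59 RPKM (SD, n = 8). Its lowest sample (21.4 RPKM) was above the highest sample of every other gene of the 9. *Dhrs3*, which encodes a reductase that returns retinal to retinol, and *Rarg*, a retinoic acid receptor gene, followed with 10.8 ± 1.43 and 10.4 ± 0.837 RPKM (SD, n = 8), and their ranges overlapped. *Rara*, the gene of another receptor, had 6.16 ± 1.16 RPKM (SD, n = 8), with a range that met neither that of *Rarg* above nor that of *Stra6* below it.

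The other 5 genes were much lower. *Stra6*, the gene of the membrane receptor that takes retinol from its carrier protein, had 2.11 ± 0.789 RPKM and *Aldh1a1*, the gene of a further retinal oxidising enzyme, had 1.56 ± 0.702 RPKM (SD, n = 8 each). *Crabp2*, which encodes the protein that carries retinoic acid to its receptors, had 0.615 ± 0.287 RPKM, *Rarb* had 0.574 ± 0.176 RPKM and *Cyp26b1*, the gene of an enzyme that breaks retinoic acid down, had 0.533 ± 0.141 RPKM (SD, n = 8 each). From *Stra6* downwards each gene's range overlapped that of the next, so the order of such neighbours is not fixed by these samples, although the lowest *Stra6* sample (1.38 RPKM) was above the highest of *Crabp2* (1.07 RPKM), *Rarb* (0.818 RPKM) and *Cyp26b1* (0.779 RPKM). *Crabp2* was read with 3 to 42 counts per sample over all 16 samples and *Cyp26b1* with 23 to 118, so their values carry the most counting error. The *Rarb* level is uncertain for another reason: 1793 of its 5265 exonic bases (34.1%) are shared with exons of *Top2b* on the opposite strand and 227 (4.31%) with those of *Gm48162*, and the strand setting of the counting is not given. Reads of these genes could therefore not be told apart, and *Top2b*, looked up after its overlap was seen, had 158 ± 23.6 CPM with adjudin and 160 ± 26.3 CPM with DMSO (SD, n = 8 each), against about 3 CPM for *Rarb*. None of the other 8 genes shared exonic bases with a neighbour.

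**Figure D1:**
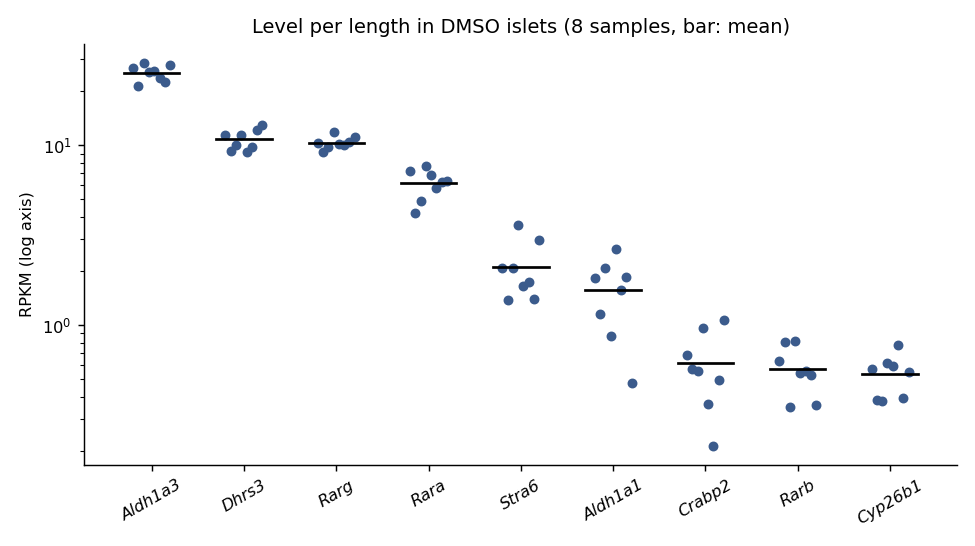
Level of each of the 9 genes in the 8 DMSO samples, as RPKM on a log axis, with 1 point per sample and a bar at the mean. *Aldh1a3* stands above the rest at 25.3 RPKM, *Dhrs3* and *Rarg* overlap near 10 RPKM, and the 5 genes from *Stra6* to *Cyp26b1* lie lower with overlapping ranges.

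The question of the comparison is what 1 day of adjudin did to these genes in diabetic islets. The genes were chosen with this contrast known, so their changes are given as a description. Of the 9 genes, 2 were called and both were lower with adjudin (against 3.07% of all tested genes called lower and 2.17% called higher, from which nothing is read here). They were *Dhrs3* and *Cyp26b1*, whose products remove retinal and retinoic acid. The remaining 7, which include all 3 receptor genes and both retinal oxidising enzyme genes of the 9, were not called. The median log2 fold change of the 9 was -0.21. Both calls depended on the comparison being made within batches: without the batch term, edgeR called 0 of the 9 (2 at an unadjusted p under 0.05) and 1 gene in all. Without the filter on low counts, 4 of the 9 were called lower, *Stra6* and *Aldh1a1* in addition, among 1577 of 34382 genes.

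*Stra6* (ENSMUSG00000032327, GRCm38 chr9:58063788-58153996, plus strand) stands at the entry of the pathway and is itself induced by retinoic acid in many cells. It had 7.74 to 15.3 CPM (median 10.7) with adjudin and 8.03 to 21.0 CPM (median 11.1) with DMSO. Adjudin samples were lower in 7 of 8 batches, by little in batches 2 and 7, and the ranges overlapped widely. The log2 fold change in the fit was -0.21 (standard error 0.08).

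*Crabp2* (ENSMUSG00000004885, GRCm38 chr3:87948666-87953376, plus strand), the intracellular carrier, had 0.0993 to 1.13 CPM (median 0.536) with adjudin and 0.283 to 1.41 CPM (median 0.747) with DMSO. It was lower with adjudin in 6 of 8 batches and higher in batches 2 and 3, with log2 ratios within batches that ran from -1.83 to 0.46. This is the widest spread between batches of the 9 genes, in the gene with the fewest counts, and the log2 fold change of -0.53 had a standard error of 0.25.

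*Dhrs3* (ENSMUSG00000066026, GRCm38 chr4:144892827-144928209, plus strand) was alone among the 9 genes in changing in the same direction in every batch (3.15% of all tested genes were lower in 8 of 8). It had 17.9 to 27.7 CPM (median 22.0) with adjudin and 27.0 to 38.2 CPM (median 31.4) with DMSO, on average 22.7 ± 3.24 CPM with adjudin and 31.7 ± 4.19 CPM with DMSO (SD, n = 8 each). The ranges overlapped by 1 adjudin sample, and the other 7 were below the lowest DMSO sample. Adjudin samples were lower in 8 of 8 batches, with log2 ratios from -0.73 (batch 7) to -0.27 (batch 5), and the mean log2 ratio within batches was -0.48 ± 0.14 (SD, n = 8 batches). The fit gave a log2 fold change of -0.48 (standard error 0.05), a level 28.2% lower. Of the spread of its log2 CPM over the 16 samples, treatment held 62.8% and batch 32.4%. By comparison, all 9 genes but *Dhrs3* and *Cyp26b1* (35.3%) had at most 11.3% of their spread with treatment. Leaving out any 1 batch moved the log2 fold change between -0.51 and -0.44.

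The retinal oxidising enzymes are the source of retinoic acid, and the gene of a further such enzyme, *Aldh1a2*, is given with the other pathway genes. *Aldh1a3* (ENSMUSG00000015134, GRCm38 chr7:66390890-66427517, minus strand) had 89.9 to 135 CPM (median 112) with adjudin and 98.6 to 132 CPM (median 119) with DMSO, with adjudin lower in 4 batches and higher in 4. Its log2 fold change was -0.04 (standard error 0.03), and batch held 89.4% of its spread. *Aldh1a1* (ENSMUSG00000053279, GRCm38 chr19:20492715-20643462, plus strand) had 3.80 to 9.06 CPM (median 5.30) with adjudin and 2.35 to 13.1 CPM (median 8.35) with DMSO. Batches 1, 3, 5 and 7 were lower with adjudin (log2 ratios of -1.44 to -0.53), whereas batches 2, 4 and 8 were higher by 0.15 to 0.69 and batch 6 was level at 0.00. The log2 fold change of -0.38 (standard error 0.18) therefore averages batches that went opposite ways.

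*Cyp26b1* (ENSMUSG00000063415, GRCm38 chr6:84571414-84593908, minus strand) had the largest fitted change of the 9 genes. It had 0.928 to 3.35 CPM (median 1.56) with adjudin and 2.03 to 4.17 CPM (median 3.00) with DMSO, on average 1.83 ± 0.836 CPM with adjudin and 2.85 ± 0.752 CPM with DMSO (SD, n = 8 each). The ranges overlapped, with 5 of 8 adjudin samples below the lowest DMSO sample. It was lower with adjudin in 7 of 8 batches. In 6 of these the log2 ratio was between -0.69 and -1.19, in batch 5 it was -0.26, and batch 4 was level at 0.02. The log2 fold change was -0.68 (standard error 0.14), a level 37.5% lower, and ran from -0.80 to -0.62 when any 1 batch was left out. The related gene *Cyp26a1*, another retinoic acid hydroxylase, was barely detected, at 0.427 ± 0.160 CPM with adjudin and 0.599 ± 0.364 CPM with DMSO (SD, n = 8 each).

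The 3 receptor genes showed no called change. *Rara* (ENSMUSG00000037992, GRCm38 chr11:98927818-98974942, plus strand) had 19.0 to 31.9 CPM (median 29.5) with adjudin and 18.3 to 33.5 CPM (median 27.5) with DMSO, a log2 fold change of 0.03 (standard error 0.05). *Rarg* (ENSMUSG00000001288, GRCm38 chr15:102234938-102257517, minus strand) had 37.5 to 47.0 CPM (median 44.4) with adjudin and 39.2 to 50.7 CPM (median 43.4) with DMSO, a log2 fold change of -0.01 (standard error 0.04). *Rarb* (ENSMUSG00000017491, GRCm38 chr14:16430839-16819156, minus strand), in which a DR5 element near the start makes it a textbook target of retinoic acid, had 2.52 to 3.57 CPM (median 2.85) with adjudin and 1.84 to 4.31 CPM (median 2.89) with DMSO. Its log2 fold change was 0.02 (standard error 0.13), with 5 batches higher and 3 lower, and the adjudin samples lay within the range of the DMSO samples. The standard errors of *Rara* and *Rarg* are under 0.05 on the log2 scale, whereas that of *Rarb* leaves room for a larger change in either direction. *Rara* was the gene most tied to its batch, which held 94.7% of its spread: batches 2 and 3 were the lowest in both treatments.

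**Figure D2:**
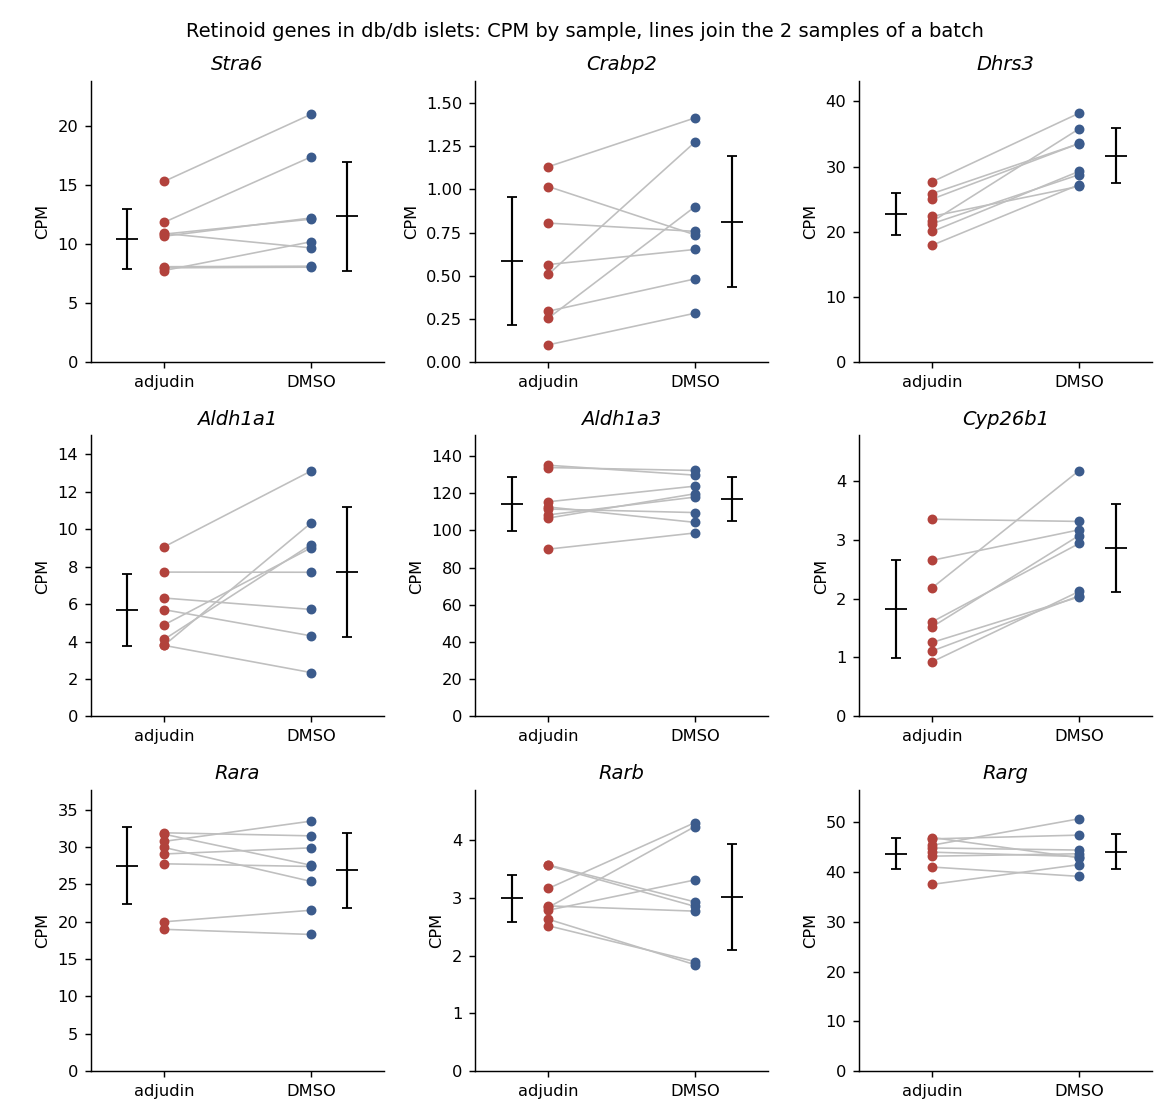
CPM of the 9 genes in each adjudin sample (left, red) and each DMSO sample (right, blue), with grey lines that join both samples of a batch and black bars for the mean ± SD of 8 samples. All 8 lines of *Dhrs3* and 7 of 8 lines of *Cyp26b1* run to a lower adjudin point, and those of *Rara*, *Rarg* and *Aldh1a3* run both ways.

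**Figure D3:**
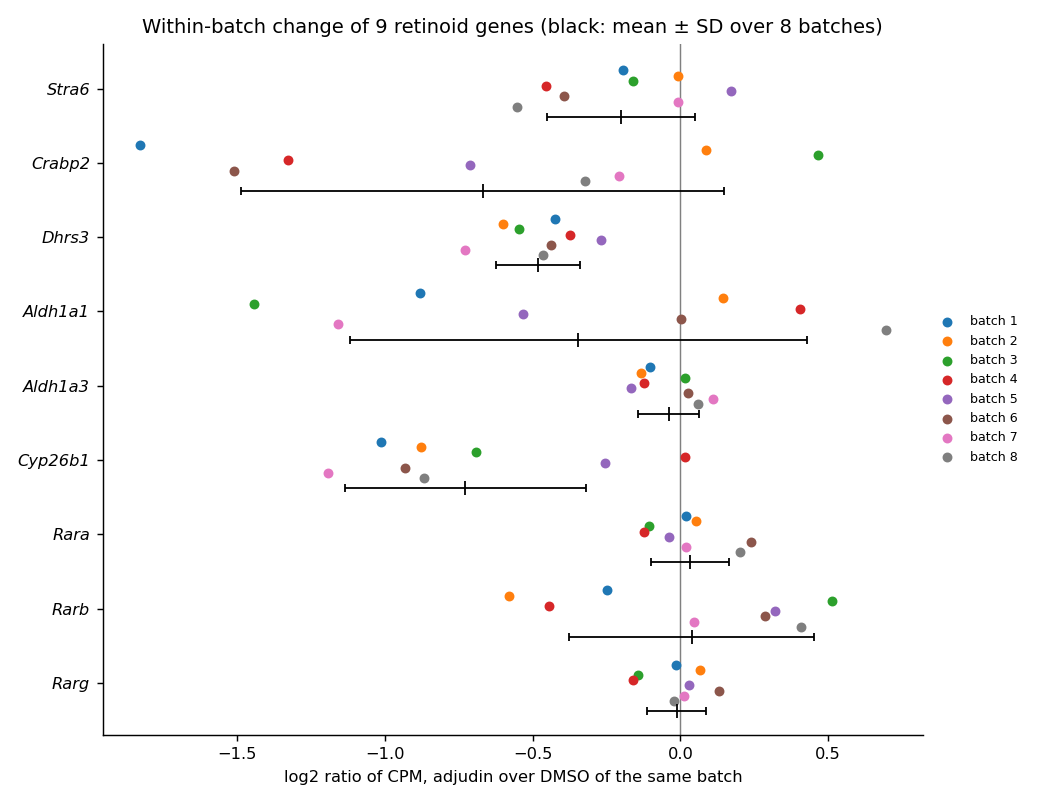
Log2 ratio of CPM, adjudin over DMSO of the same batch, with 1 point per batch and black bars for the mean ± SD over 8 batches. *Dhrs3* is negative in every batch within a narrow band (-0.73 to -0.27), and *Crabp2* and *Aldh1a1* scatter on both sides of 0.

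To place the genes among other transcripts, each was compared with 13721 tested genes of at least 1 log2 CPM on average (13722 for *Crabp2*) by the root mean square difference of log2 CPM over the 16 samples, after the mean of each gene was subtracted. Differences by treatment and by batch both enter this measure. A gene with no variation over the samples would lie at a distance equal to the spread of the gene compared. This spread was 0.30 for *Dhrs3*, 0.59 for *Cyp26b1*, 0.41 for *Stra6*, 0.63 for *Aldh1a1* and 0.83 for *Crabp2*. It was 0.32 for *Rarb*, 0.16 for *Aldh1a3*, 0.28 for *Rara* and 0.10 for *Rarg*. Nearest to *Dhrs3* were *Adam8*, *Spi1* and *Slc15a3*, at 0.12 each, against a median of 0.37 over all genes. *Spi1* encodes the transcription factor PU.1 of myeloid and B cells, *Adam8* a membrane metalloprotease and *Slc15a3* a lysosomal peptide transporter, and their log2 fold changes were -0.37, -0.29 and -0.29. Nearest to *Cyp26b1* were *Tgfb2*, a growth factor gene, *Akap12*, which encodes a kinase anchoring protein, and *Lrig3*, at 0.30 to 0.34 against a median of 0.62. Nearest to *Stra6* were *Timp3*, an inhibitor of matrix proteases, *Thbs1*, the gene of a secreted matrix glycoprotein, and *Itgal*, a leucocyte integrin gene, at 0.20 to 0.22 against 0.45. *Aldh1a1* was nearest to *Cela1*, the gene of an elastase, *Rnase1*, the gene of pancreatic ribonuclease, and *Zg16*, which encodes a zymogen granule protein, at 0.35 to 0.40 against 0.66.

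*Crabp2* was nearest to *Procr*, *Bglap3* and *Mmp13*, at 0.45 to 0.49 against a median of 0.85. *Rarb* was nearest to *Exo1*, *Tcaf2* and *Serac1*, at 0.21 to 0.24 against 0.38. *Aldh1a3* was nearest to *Sav1*, *Ube2d1* and *Enoph1*, at 0.12 to 0.13 against 0.26, with a spread of its own of only 0.16. *Rara* was nearest to *Nol6*, *Smarcd1* and *Git1*, at 0.08 to 0.09 against 0.33, and *Rarg* to *Ppm1g*, *Ash2l* and *Sec61a1*, at 0.06 each against 0.23.

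The other genes of the pathway were read from 5 lists of 67 genes in all, of which 50 were tested. Of these 50, 2 were called higher and 6 lower with adjudin (against 2.17% and 3.07% of all tested genes), and their median log2 fold change was -0.01. The 17 genes not tested had too few counts, and include *Lrat*, the gene of the retinol esterifying enzyme, and the carrier genes *Crabp1* and *Rbp2*.

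Among carriers and uptake proteins 7 of 12 were tested and 2 were called, both lower. *Fabp5*, which encodes a fatty acid binding protein that can also carry retinoic acid, had 81.0 ± 8.10 CPM with adjudin and 95.1 ± 13.3 CPM with DMSO (SD, n = 8 each), lower in 8 of 8 batches (log2 fold change -0.22, adjusted p = 0.0180 by edgeR). Without batch 2 or batch 8 its adjusted p was 0.0526 and 0.0622. *Ttr*, the gene of the blood carrier transthyretin and also a marker of alpha cells, was the most abundant of the list, at 174 ± 44.8 CPM with adjudin and 162 ± 48.1 CPM with DMSO, and was not called.

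Among enzymes of retinol and retinal 18 of 25 were tested and 1 was called. *Adh1*, a cytosolic alcohol dehydrogenase gene, had 56.9 ± 9.59 CPM with adjudin and 50.8 ± 9.88 CPM with DMSO (SD, n = 8 each), higher in 8 of 8 batches (log2 fold change 0.17, adjusted p = 0.00917 by edgeR). *Rdh10*, the enzyme that makes retinal from retinol, was the most abundant, at 76.0 ± 8.17 CPM with adjudin and 76.9 ± 5.87 CPM with DMSO, and neither it nor *Adh5* (70.0 ± 9.36 CPM with adjudin, 72.3 ± 11.1 CPM with DMSO) was called. *Aldh1a2*, which encodes another enzyme that oxidises retinal, had 28.6 ± 4.32 RPKM with DMSO (SD, n = 8). This range overlapped that of *Aldh1a3*, which had 25.3 ± 2.59 RPKM. *Aldh1a2* was lower with adjudin in 6 of 8 batches and was not called (log2 fold change -0.13, adjusted p = 0.0667 by edgeR). Of the 2 breakdown genes, *Cyp26a1* was tested and not called, and *Cyp26c1* was not tested at 0 to 9 counts a sample.

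Among receptor partners and cofactors 11 of 12 were tested and 1 was called. The corepressor gene *Ncor1* had 201 ± 41.3 CPM with adjudin and 190 ± 36.4 CPM with DMSO (SD, n = 8 each) and was not called. *Ncoa1*, a coactivator gene, was higher in 7 of 8 batches with a log2 fold change of 0.13 (adjusted p = 0.0477 by edgeR), but it was called in only 1 of the 8 fits that left out a batch, the one without batch 6, and its adjusted p reached 0.139 without batch 4.

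Among genes known to respond to retinoic acid 13 of 16 were tested and 4 were called, all lower with adjudin (against 3.07% of all tested genes). *Hoxa5*, a homeobox gene of body patterning, had 4.60 to 7.56 CPM with adjudin and 5.40 to 10.4 CPM with DMSO and was lower in 8 of 8 batches (log2 fold change -0.43, adjusted p = 0.00311 by edgeR). Its neighbour *Hoxa4* was lower in 8 of 8 batches (-0.34, adjusted p = 0.0434), as was *Rarres1* (-0.91, adjusted p = 0.0357), a membrane protein gene read with 5 to 22 counts a sample. *Tgm2*, the tissue transglutaminase gene, had 252 ± 52.8 CPM with adjudin and 284 ± 41.3 CPM with DMSO and was lower in 6 of 8 batches (-0.19, adjusted p = 0.0461 by edgeR). *Btg2*, an antiproliferative gene, had 135 ± 15.5 CPM with adjudin and 138 ± 16.7 CPM with DMSO and was not called. The calls of *Hoxa4* and *Rarres1* were kept only without batch 6 and that of *Tgm2* only without batch 5 or 6 when single batches were left out, with adjusted p up to 0.123 (*Hoxa4*, without batch 3), 0.0922 (*Rarres1*, without batch 2, and not tested without batch 3) and 0.134 (*Tgm2*, without batch 4). *Hoxa5* and *Adh1* were called in 8 of 8 such fits.

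**Figure D4:**
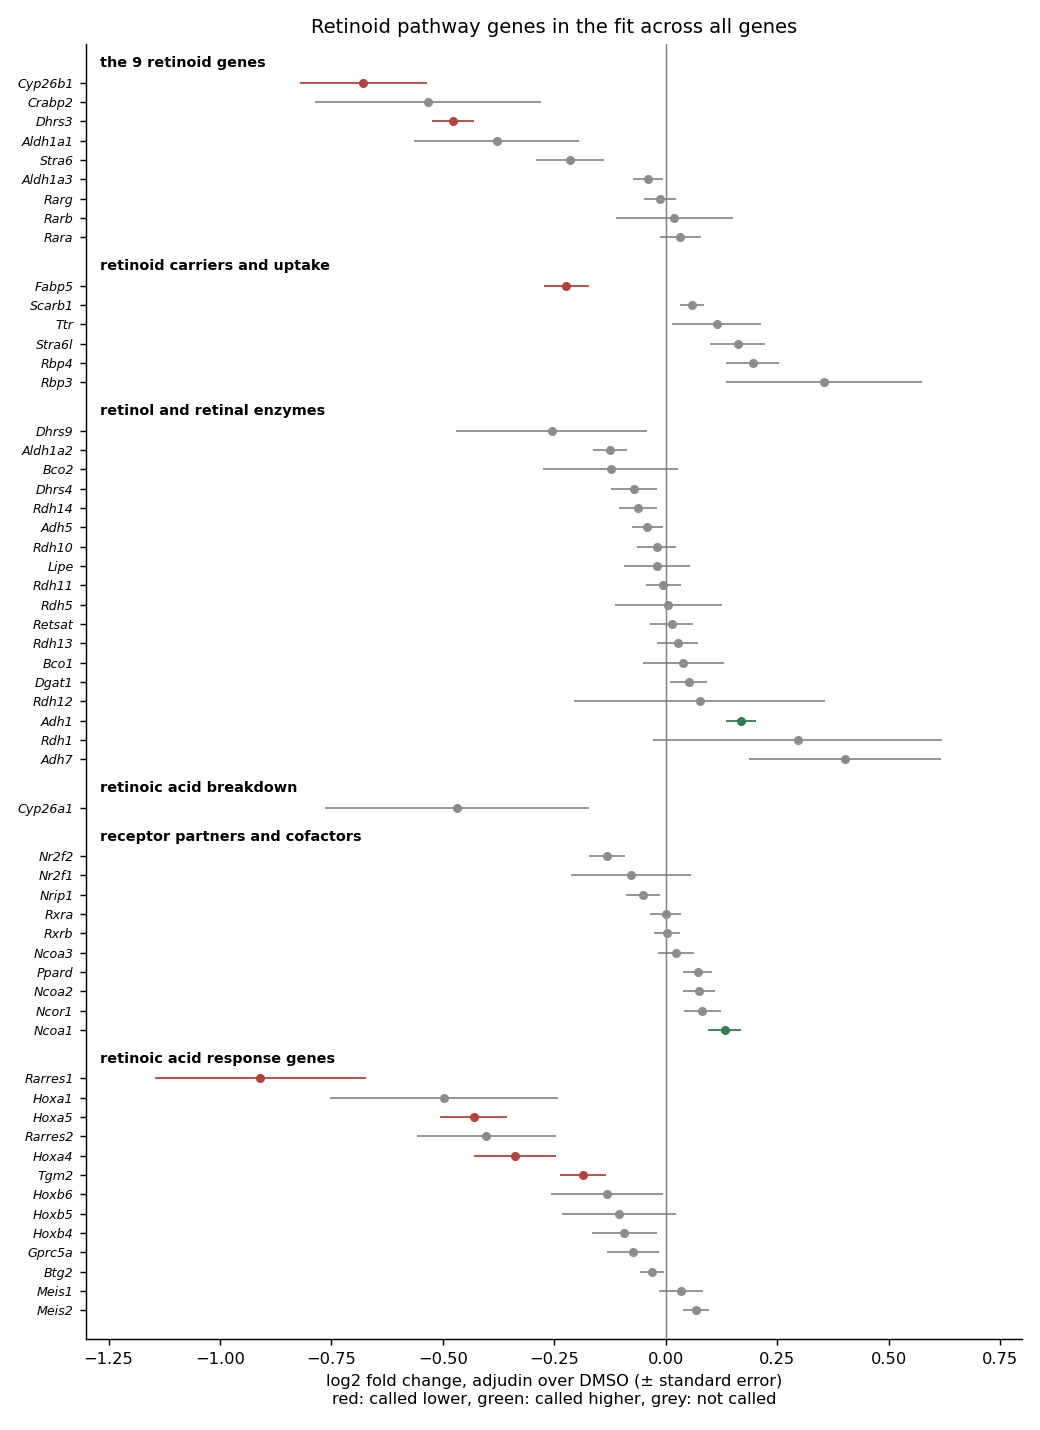
Log2 fold change, adjudin over DMSO, of the 9 genes and of tested genes of the other lists, with bars for ± 1 standard error from the fit across all genes (red, called lower, green, called higher, grey, not called). Apart from *Dhrs3* and *Cyp26b1*, the genes drawn as called lower are *Fabp5*, *Rarres1*, *Hoxa5*, *Hoxa4* and *Tgm2*, and those called higher are *Adh1* and *Ncoa1*.

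Summed markers of macrophages and of stellate cells and fibroblasts were also lower with adjudin in most batches. Beside the counts of called markers given here, 3.07% of all tested genes were called lower and 2.17% higher. In RNA of whole islets, fewer cells of a type and less RNA of a gene per cell cannot be told apart. The summed level of 10 macrophage markers was 620 to 854 CPM (median 679) with adjudin and 646 to 1213 CPM (median 947) with DMSO, lower in 8 of 8 batches, and 8 of the 10 were called lower (*Adgre1*, *Cd68*, *Csf1r*, *Lyz2*, *C1qa*, *C1qb*, *C1qc* and *Fcgr1*). The mean log2 ratio of this sum was -0.39 ± 0.20 (SD, n = 8 batches), beside -0.48 ± 0.14 for *Dhrs3* and -0.73 ± 0.41 for *Cyp26b1*. In batch 5, where the macrophage sum was nearly level (-0.04), *Dhrs3* had its smallest difference (-0.27) and *Cyp26b1* its second smallest (-0.26), and the stellate cell and fibroblast sum was level there too (0.01). By contrast, batch 1 had the lowest macrophage ratio (-0.63) and a *Dhrs3* ratio of -0.42, batch 7 had the lowest *Dhrs3* ratio (-0.73) and a macrophage ratio of -0.41, and batch 4, where *Cyp26b1* was level, had a macrophage ratio of -0.35. The summed level of 11 stellate cell and fibroblast markers was 9302 to 17839 CPM (median 11679) with adjudin and 9737 to 19955 CPM (median 12467) with DMSO, lower in 7 of 8 batches, and 7 were called lower (*Col3a1*, *Lum*, *Pdgfra*, *Acta2*, *Thy1*, *Postn* and *Rgs5*). The mean log2 ratio of this sum was -0.13 ± 0.07 (SD, n = 8 batches). Most of the sum was *Col1a1*, *Col3a1* and *Col1a2* (means of 5147, 3582 and 2898 CPM with DMSO), with log2 fold changes of -0.09, -0.19 and -0.08. Those of *Acta2*, *Thy1*, *Postn* and *Rgs5* were -0.29, -0.31, -0.27 and -0.35. Those of *Dcn*, *Lum*, *Pdgfra* and *Pdgfrb* were -0.09, -0.18, -0.19 and -0.05. The sum was also near 0 in batch 7 (-0.05), where *Dhrs3* (-0.73) and *Cyp26b1* (-1.19) had their lowest ratios. In batch 4, where *Cyp26b1* was level, it was -0.16. No macrophage or stellate cell marker was at 0 in any sample. The part of either list in the results on *Dhrs3*, *Cyp26b1* and the response genes was not tested.

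Of 9 beta cell markers 3 were called higher (*Nkx6-1*, *Pdx1* and *G6pc2*), and their sum was 40022 to 105110 CPM (median 82913) with adjudin and 35958 to 121502 CPM (median 79128) with DMSO. Of 6 mesothelial markers, *Wt1* was called lower, and *Upk3b*, *Lrrn4* and *Upk1b* had at most 4 counts in a sample. *Amy2a5* was called lower among 8 acinar markers, whose sum was 5470 to 10446 CPM (median 8660) with adjudin and 5101 to 12499 CPM (median 9320) with DMSO. This sum was lower in 5 of 8 batches and higher in 3. Most of it was *Ctrb1* (6801 ± 1486 CPM with adjudin, 6928 ± 2207 CPM with DMSO, log2 fold change 0.01). The log2 fold changes of the other acinar markers ran from -0.77 (*Amy2a5*) to -0.13 (*Prss2*). The acinar sum was highest against DMSO in batch 8 (log2 ratio 0.65), where *Aldh1a1* was also highest against DMSO (0.69), but in batch 4 the sum was lower (-0.25) while *Aldh1a1* was higher (0.40). The part of acinar RNA in the *Aldh1a1* result was not tested. Of the 24 markers of alpha, delta, endothelial and ductal cells, edgeR called 0 (10 at an unadjusted p under 0.05), limma-voom 0 and DESeq2 3.

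**Figure D5:**
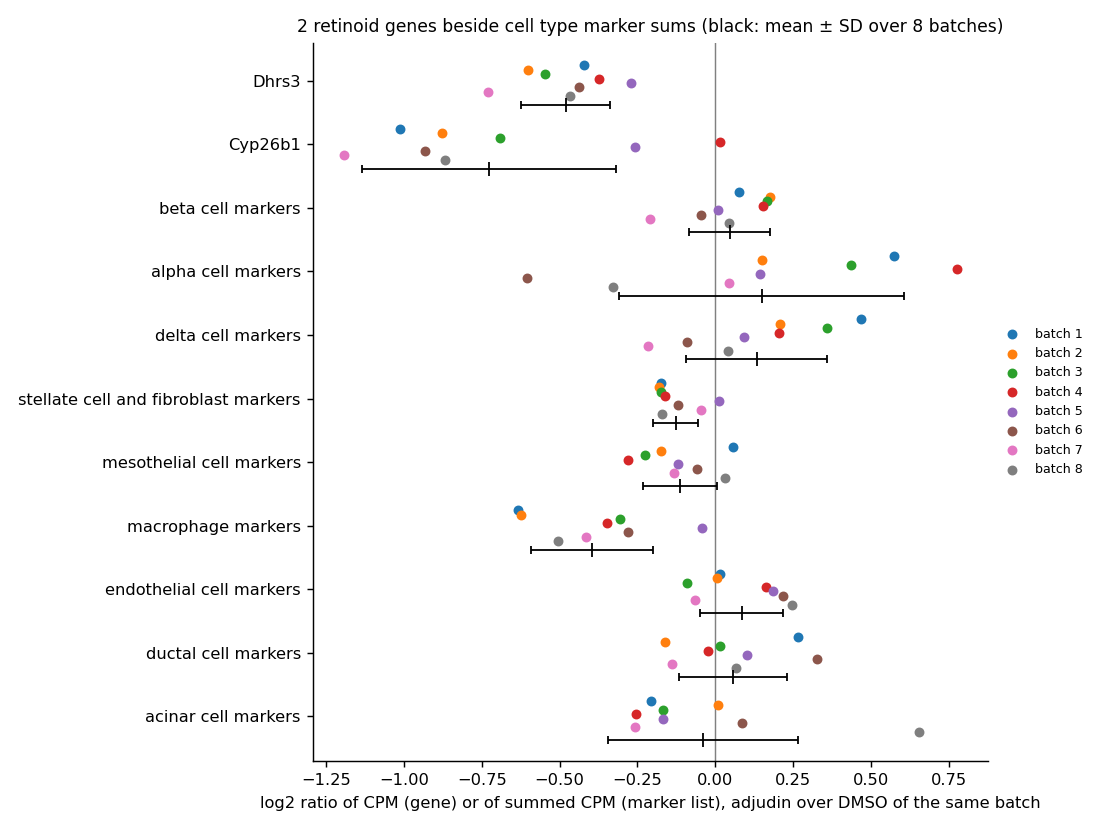
Log2 ratio, adjudin over DMSO of the same batch, for the CPM of *Dhrs3* and *Cyp26b1* and for the summed CPM of 9 marker lists, with 1 point per batch and black bars for the mean ± SD over 8 batches. The macrophage sum is negative in 8 of 8 batches and the stellate cell and fibroblast sum in 7 of 8.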

How the data were processed

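Polyadenylated RNA of 16 *db/db* islet samples was sequenced. Per the labels and methods, the authors used HISAT2 2.0.5 for alignment to GRCm38 (mm10), then obtained gene counts from featureCounts 1.5.0-p3. The deposited values are raw counts without normalisation, and gene lengths come from other columns of the deposited table. The strand setting of the counting is not given in the sources used here. No sample column was left out (0 not mapped), and no 2 samples of a treatment agreed within sampling noise.

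Counts were analysed in R 4.3.3 with edgeR 4.0.16: genes were filtered with filterByExpr, scaled with TMM factors and tested by the quasi-likelihood test with batch and treatment as terms. Adjusted p values are Benjamini-Hochberg values over all 16910 tested genes, and a gene was called below 0.05. Standard errors were derived as |log2 fold change| divided by √F of that test. CPM and RPKM used the scaled library sizes, and log2 CPM for profiles a prior count of 2. Batch numbers come from the labels. Deviations from the treatment mean correlated at 0.37 to 0.69 within the 8 batches, and at -0.18 (median) between batches. P values set the treatment difference against its spread over the 8 batches, with samples of 1 to 2 mice each. The script was tested on simulated data.

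The genes, lists and tests were chosen with earlier results of these data known. Named are the 9 genes, of each pathway list the called genes and the 2 most abundant, the 3 nearest profiles of each gene and the called markers, but a few genes so selected are not reported. *Lrat*, *Crabp1*, *Rbp2*, *Aldh1a2*, *Top2b*, *Gm48162*, *Upk3b*, *Lrrn4* and *Upk1b* were added after their values were seen. Gene overlaps were read from GENCODE M21 on GRCm38. Alternatives were DESeq2 1.42.0, limma-voom (limma 3.58.1), other scaling factors and filters, no batch term and each batch left out.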

Additional observations from a re-analysis of the deposited data

How the results depend on the processing

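Without the batch term (no replicate block), 1 gene was called in all, 0 of the 9 retinoid genes (2 at an unadjusted p under 0.05 in edgeR) and 0 of the other retinoid pathway genes (6), against 886, 2 and 8 with it. The labels pair the samples by batch, and the log2 fold changes of *Dhrs3* (-0.48) and *Cyp26b1* (-0.64) kept their direction. Without a filter beyond 1 count, 1577 genes and 4 of the 9 were called, and the cause was not tested. With DESeq2, limma-voom, DESeq2 size factors, total counts or a filter at 1 CPM in 8 samples, 877 to 1054 genes and 2 of the 9 were called. When each batch was left out in turn, 412 to 1071 genes, 2 of the 9 and 3 to 10 of the other pathway genes were called, with 412, 459, 473 and 548 genes without batches 4, 3, 8 and 2. *Dhrs3* and *Cyp26b1* were called in 8 of 8 of these fits. Outside the fits that left out a batch or the batch term, *Ncoa1* was lost with limma-voom (adjusted p = 0.0552), *Hoxa4* with DESeq2 (0.0568), *Tgm2* with the filter at 1 CPM (0.0517) and *Rarres1* without a filter (0.0657). DESeq2 gave *Rarres1* no adjusted p. The mean CPM of the 9 genes in DMSO samples moved by less than 1 SD under other scalings. In an alternative chosen after seeing the data, the length of *Rarb* without bases shared with antisense exons gave 0.931 RPKM in DMSO samples, against 0.574. Depth limits *Crabp2*, read with 3 to 42 counts a sample, most among the 9 genes, and *Rarres1* (5 to 22) among the other called genes.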
